A study of Rattus norvegicus with 15 samples.

Results

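Genes of astrocytes and tanycytes were examined in the rat subfornical organ, a small sensory structure on the wall of the third ventricle that lies outside the blood-brain barrier. The group holds 32 genes chosen by name: markers of astrocytes, and genes of the radial glia-like cells, tanycytes, that line the ventricle. Of these, 30 had a probe set assigned to that gene alone, out of 14218 such genes on the array, and Sox9 and Slc39a12 had none. One value per gene was used, that of the probe set brightest on average in the 15 arrays. Tests were confined to probe sets with a mean above the 30th percentile, a log2 value of 5.11, and 29 of the 30 genes met this. Rax, a transcription factor of hypothalamic tanycytes, was below it with a mean of 4.59 (controls 4.10 to 4.63, water-deprived 4.29 to 4.71, food-deprived 4.70 to 5.01), and its levels are not interpreted.

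The rats were male Sprague Dawley animals, 10 to 12 weeks old, in 3 groups: controls, water-deprived rats and rats deprived of food for 48 h, the last per the labels. The length of water deprivation is not given in the sources used here, and the series' design text, read literally, denies food in every condition. Each of the 15 Affymetrix arrays, 5 per group, carried RNA pooled from 5 animals, so the spread between arrays is that between pools. All values below are log2(signal + 16), where the signal is the deposited linear intensity, and values for single arrays are listed in the order of array number 1 to 5. In bulk tissue, a lower value can mean fewer cells of a type or less RNA per cell, and these cannot be told apart.

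Astrocytes clear glutamate and potassium from around neurons, convert glutamate to glutamine, couple to each other through gap junctions and supply neurons with lactate and lipid carriers. Tanycytes and other radial glia-like cells keep a bundle of intermediate filaments and express regulators of progenitor cells of the Sox, Hes and Id families. In the subfornical organ, glial cells that carry the sodium-sensing channel Nax (Scn7a) take part in the sensing of body sodium, and glial lactate has been linked to the signalling of these cells to neurons. The genes of the group serve 5 roles: uptake and metabolism, membrane and junction, intermediate filaments, transcription regulation, and secreted or binding proteins.

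The sequences shown next lie upstream of the 3 genes that passed the test between food-deprived and control arrays (Glul, Mlc1 and Apoe) and of the filament genes Gfap and Vim, which differed between the array sets described below. Each is the 250 bases before the first listed start, from RefSeq on GRCr8, 5′ to 3′ on the gene's strand: Glul chr13:68519250-68519499 (plus), Mlc1 chr7:121946699-121946948 (minus), Apoe chr1:88485817-88486066 (minus), Gfap chr10:88361662-88361911 (minus) and Vim chr17:81577011-81577260 (plus). Capitals mark 4 motifs on either strand: TATAAA (the TATA box), GGGCGG (the core of a GC box), ACAAT (a core recognised by Sox proteins) and TTCNNNGAA (recognised by STAT proteins). Glul has 2 listed starts and Apoe 3, and the others have 1.
Glul: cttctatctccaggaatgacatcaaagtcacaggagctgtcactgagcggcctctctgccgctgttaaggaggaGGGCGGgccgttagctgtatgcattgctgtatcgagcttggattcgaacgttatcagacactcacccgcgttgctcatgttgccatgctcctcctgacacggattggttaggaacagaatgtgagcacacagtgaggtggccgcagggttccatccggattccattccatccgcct
Mlc1: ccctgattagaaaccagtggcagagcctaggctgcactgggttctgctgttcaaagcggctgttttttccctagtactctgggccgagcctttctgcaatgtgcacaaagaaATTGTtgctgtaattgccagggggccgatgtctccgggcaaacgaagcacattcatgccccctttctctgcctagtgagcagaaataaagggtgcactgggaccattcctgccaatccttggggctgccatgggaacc
Apoe: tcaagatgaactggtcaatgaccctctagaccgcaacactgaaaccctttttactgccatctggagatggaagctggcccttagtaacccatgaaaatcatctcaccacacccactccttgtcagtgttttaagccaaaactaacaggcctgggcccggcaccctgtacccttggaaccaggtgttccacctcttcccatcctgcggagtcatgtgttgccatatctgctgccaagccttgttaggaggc
Gfap: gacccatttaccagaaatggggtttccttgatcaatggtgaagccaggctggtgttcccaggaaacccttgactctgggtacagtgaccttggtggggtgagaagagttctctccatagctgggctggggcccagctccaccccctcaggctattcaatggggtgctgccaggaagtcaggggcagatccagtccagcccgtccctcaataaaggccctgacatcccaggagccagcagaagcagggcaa
Vim: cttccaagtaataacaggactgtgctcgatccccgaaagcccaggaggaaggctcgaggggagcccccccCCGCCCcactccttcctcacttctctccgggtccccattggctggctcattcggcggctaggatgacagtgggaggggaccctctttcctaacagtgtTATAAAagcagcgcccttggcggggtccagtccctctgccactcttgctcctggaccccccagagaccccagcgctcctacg
The window of Glul holds 1 GGGCGG, and that of Mlc1 holds 1 ACAAT on the opposite strand. Vim has 1 TATAAA, and a GC box core on the opposite strand, while the windows of Apoe and Gfap hold none of the 4 motifs. Over the 30 genes of the group with an upstream entry, GGGCGG was found in 14 (46.7%, against 32.4% of 27457 genes) and ACAAT in 5 (16.7%, against 29.6%). TATAAA was found in 3 (10.0%, against 13.1%) and TTCNNNGAA in 2 (6.67%, against 7.52%). The 3 genes that passed the test share none of these motifs in their windows.

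The arrays fell into 2 sets that bear on every comparison below. The mean log2 ratio of 5′ to 3′ control signals of Actb and Gapdh was above -1 in all 5 food-deprived arrays and in water-deprived arrays 1 and 2 (the high set of 7), and below it in the 5 controls and water-deprived arrays 3 to 5 (the low set of 8). With the set as a term in the fit, the difference between sets was estimated from the water-deprived arrays alone. Water deprivation could be compared with control within the low set and with food deprivation within the high set. Controls and food-deprived arrays never shared a set, so for these groups array set and group cannot be told apart. Control array 5 was the lowest control for 21 of the 29 genes, with a median of -0.50 against the mean of the other controls, and the highest for Slc7a10, Clu and Acsl6. That array also had the lowest summed neuron markers among controls (signal 6170, against 18497 in control array 2) and the highest summed choroid plexus markers (17585, against 6572 in control array 2). The part of tissue composition in the results was not tested. Water-deprived array 2 was the lowest of its group for 13 genes, as the colour map of the 15 arrays shows. Water-deprived array 3 had a ratio of -2.81, against -1.67 to -1.24 in the rest of the low set, and was the highest of its group for 12 genes, Gfap and Vim among them.

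**Figure D1:**
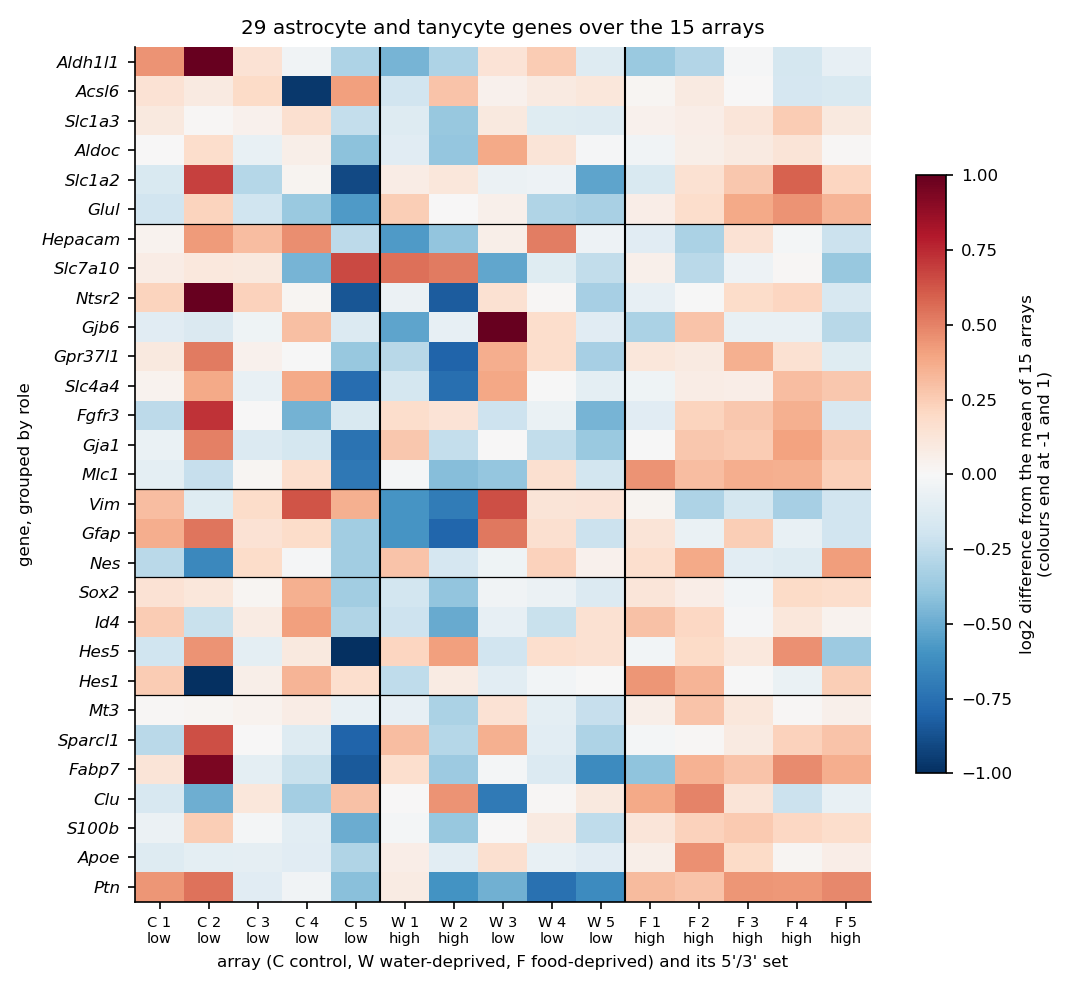
Colour gives the log2 difference of each gene (rows, grouped by role) from its own mean over the 15 arrays (columns, with group and 5′/3′ set), ending at -1 and 1. Control array 5 is the lowest control for 21 of 29 genes and control array 2 the highest for 14, while the food-deprived arrays are the most even, with a median SD of 0.16 against 0.33 in controls and 0.26 in water-deprived arrays.

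The first comparison asks which glial transcripts differ between food-deprived and control rats. Glul, Mlc1 and Apoe rose in food-deprived arrays, by 1.42-fold, 1.43-fold and 1.24-fold. These 3 calls (limma, Benjamini-Hochberg over all 21729 probe sets, adjusted p under 0.05) compare with 3.12% of the brightest probe sets of all genes called higher and 5.73% called in either direction. Of the 29 genes, 21 lay above 0 (median log2 difference 0.14, against 0.05 over all probe sets) and all 29 differences were smaller than 1.5-fold. Over all brightest probe sets 54.5% lay above 0 (median 0.03). For 2 of the 29, Mlc1 and Apoe, the food-deprived and control arrays did not overlap, which held for 12.1% of all brightest probe sets. None of the 3 calls held when the array set was a term, when arrays were centred on their median, or after quantile normalization. Without control array 5, limma also called 0 of the 29, and the share of all probe sets called without that array is not given here. Among all probe sets, the called ones were 55.9% higher as deposited, 45.6% after quantile normalization and 35.6% after median centring, which moved the median over all probe sets from 0.05 to -0.06. Under these scalings 17 and 16 of the 29 genes lay above 0.

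The second comparison asks which glial transcripts differ in rats that lack water. None of the 29 genes passed the test, and 1 had an unadjusted p under 0.05, Ptn. Over all brightest probe sets 0.00869% were called. The differences ran from -0.56 (Ptn) to 0.37 (Hes5), 12 lay above 0 (against 49.9% of all brightest probe sets) and the median was -0.05. Within the low array set, 3 water-deprived arrays against 5 controls, limma again called 0, and 14 of 29 lay above 0 (median -0.02). Of all 11510 brightest probe sets 0 were called in that fit, and 47.9% lay above 0. SDs among the water-deprived arrays ran from 0.12 (Apoe) to 0.63 (Gjb6).

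Water and food deprivation were compared directly, with differences given as water minus food. None of the 29 genes passed, against 0.0956% of the brightest probe sets of all genes, and 8 had an unadjusted p under 0.05. Ptn was closest (log2 -0.87, limma adjusted p = 0.0509). Of the 29 genes, 22 were lower in water-deprived arrays (median -0.22, against -0.04 over all probe sets), and for 4 of them (Ptn, Mlc1, S100b and Sox2) the groups did not overlap, which held for 3.15% of all brightest probe sets. Of all brightest probe sets 45.5% lay above 0 (median -0.02). In the 7 arrays of the high set (2 from water-deprived, 5 from food-deprived rats) 24 were lower under water deprivation (median -0.30) and Gfap passed, as given below. Most markers of each other cell type also lay below 0 in this comparison with all arrays. Below 0 lay 14 of 14 tested microglia and macrophage markers (median -0.21), 14 of 15 of oligodendrocytes (median -0.66) and 13 of 19 of neurons (median -0.16). So did 10 of 15 endothelial and mural markers (median -0.12) and 8 of 14 of choroid plexus and ependyma (median -0.09). In each list 0 were called. Within the high set all 14 choroid plexus and ependyma markers lay above 0 (median 0.76), against 46.2% of all brightest probe sets. Most markers of each other list lay below 0 there. The part of these cell types in the glial values was not tested.

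**Figure D2:**
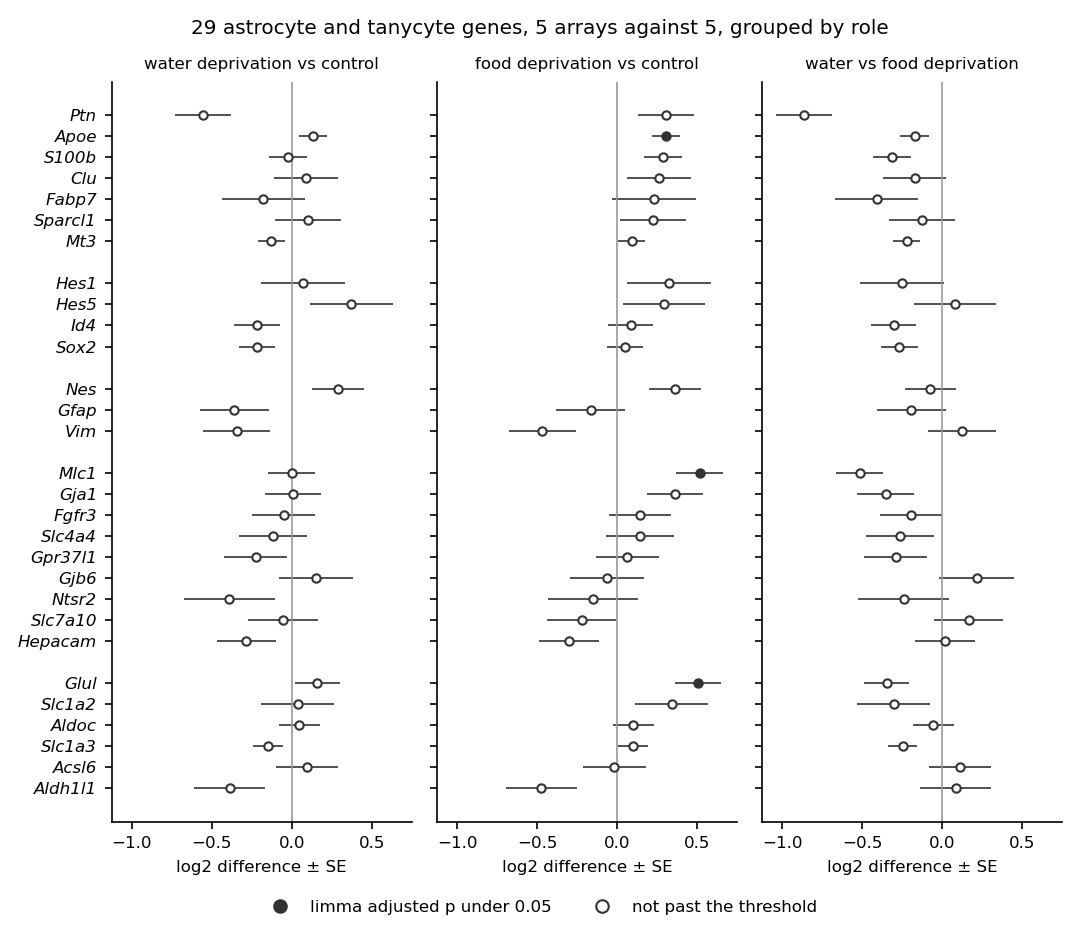
Points give the log2 difference of each gene in the 3 comparisons (water minus control, food minus control, water minus food), bars the standard error (SE) from limma, filled points an adjusted p under 0.05, with 5 arrays in each group. The filled points are Glul, Mlc1 and Apoe in food deprivation against control, and Ptn lies farthest from 0 in the comparison of water with food deprivation.

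Of the 6 uptake and metabolism genes, Glul passed in food deprivation against control and 0 passed in the other comparisons. Glul encodes glutamine synthetase, which turns glutamate and ammonia into glutamine. Its values were 10.33, 10.74, 10.33, 10.15 and 9.95 in controls, 10.77, 10.53, 10.58, 10.22 and 10.20 in water-deprived arrays and 10.59, 10.70, 10.90, 10.98 and 10.87 in food-deprived arrays. The food-deprived arrays were high, with 3 of 5 above the highest control, but control array 2 lay among them, so the groups overlapped. Glul rose by 0.51 (SE 0.14, n = 5 against 5, limma adjusted p = 0.0397), and by 0.42 (adjusted p = 0.0841) without control array 5. Leaving out any of 8 of the 15 arrays ended the call. With the array set as a term the difference was 0.19 (SE 0.23, adjusted p = 0.819). Water deprivation differed from control by 0.16 (SE 0.14, adjusted p = 0.840).

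Slc1a3, the glutamate transporter GLAST, was at 11.38, 11.30, 11.33, 11.44 and 11.05 in controls, 11.15, 10.90, 11.38, 11.16 and 11.16 in water-deprived arrays and 11.33, 11.35, 11.40, 11.54 and 11.38 in food-deprived arrays. The 3 groups lay close together, with water-deprived array 2 lowest. The difference from control was -0.15 (SE 0.09, limma adjusted p = 0.766) for water and 0.10 (SE 0.09, adjusted p = 0.535) for food deprivation. Aldh1l1, a folate-pathway enzyme widely used to mark astrocytes, was at 7.33, 8.06, 7.02, 6.84 and 6.56 in controls, 6.41, 6.56, 7.01, 7.13 and 6.75 in water-deprived arrays and 6.51, 6.58, 6.86, 6.70 and 6.79 in food-deprived arrays. Control array 2 was far above the rest, and both deprived groups overlapped the controls. The difference was -0.39 (SE 0.22, adjusted p = 0.760) for water and -0.47 (SE 0.22, adjusted p = 0.188) for food deprivation. The other members of this role were Aldoc, the brain form of aldolase, the fatty acid-activating enzyme Acsl6 and the glutamate transporter gene Slc1a2. Their differences from control ran from 0.04 to 0.09 in water deprivation and from -0.02 (Acsl6) to 0.34 (Slc1a2) in food deprivation. Both tested probe sets of Slc1a2 were dim, with means of 5.55 and 5.15 against the filter at 5.11.

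Of the 9 tested membrane, junction and receptor genes, Mlc1 rose in food deprivation and 0 passed in the other comparisons. Mlc1 encodes a membrane protein of astrocyte endfeet that is mutated in a leukodystrophy with cysts. Its values were 10.05, 9.92, 10.17, 10.31 and 9.43 in controls, 10.13, 9.72, 9.76, 10.31 and 9.96 in water-deprived arrays and 10.60, 10.46, 10.51, 10.51 and 10.39 in food-deprived arrays. All food-deprived arrays lay above all other arrays. Mlc1 rose by 0.52 (SE 0.15, n = 5 against 5, limma adjusted p = 0.0413), and the mean of water-deprived arrays equalled that of controls to 2 decimals (9.98). The difference was 0.38 (adjusted p = 0.0721) without control array 5, and leaving out any of 10 of the 15 arrays ended the call. With the array set as a term it was 0.60 (SE 0.26, adjusted p = 0.555). Between water and food deprivation it was -0.52 (SE 0.15, adjusted p = 0.114), and -0.57 (SE 0.12, adjusted p = 0.0661) within the high set.

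Gja1 encodes connexin 43, the main gap junction protein of astrocytes. It was at 11.06, 11.63, 10.99, 10.95 and 10.38 in controls, 11.39, 10.89, 11.13, 10.88 and 10.76 in water-deprived arrays and 11.12, 11.39, 11.38, 11.52 and 11.40 in food-deprived arrays. Food-deprived arrays all lay above the control mean, but control array 2 was the highest array of all. The difference was 0.01 (SE 0.18, limma adjusted p = 0.995) for water and 0.36 (SE 0.18, adjusted p = 0.207) for food deprivation. Hepacam, the adhesion protein that binds Mlc1 at astrocyte junctions, was at 7.76, 8.15, 8.04, 8.19 and 7.46 in controls, 7.16, 7.33, 7.78, 8.23 and 7.68 in water-deprived arrays and 7.61, 7.41, 7.87, 7.71 and 7.51 in food-deprived arrays. Values in the 3 groups overlapped, and Hepacam lay below control in both comparisons, at -0.28 (SE 0.19, adjusted p = 0.783) and -0.30 (SE 0.19, adjusted p = 0.326). Mlc1 and Hepacam thus differed in sign in food deprivation, although the brightest and the second probe set of Hepacam also differed in sign (0.18 for the second, adjusted p = 0.306), as did its value with the array set as a term (0.35, adjusted p = 0.691).

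The other 6 genes of this role lay between -0.39 (Ntsr2, a neurotensin receptor) and 0.15 (Gjb6, connexin 30) in water deprivation and between -0.22 (Slc7a10) and 0.14 in food deprivation. They include the growth factor receptor Fgfr3, the orphan receptor Gpr37l1 and the bicarbonate cotransporter Slc4a4. Slc7a10, the transporter Asc-1 of small neutral amino acids, was at 7.22, 7.25, 7.24, 6.68 and 7.80 in controls, 7.70, 7.66, 6.62, 7.02 and 6.90 in water-deprived arrays and 7.19, 6.88, 7.09, 7.15 and 6.76 in food-deprived arrays. Within the water-deprived group the 2 arrays of the high set lay above the 3 of the low set. The set difference was 0.83 (SE 0.24, limma adjusted p = 0.0287), and food deprivation against control moved from -0.22 (SE 0.22) to -1.05 (SE 0.29, adjusted p = 0.472) when the set was a term. Without water-deprived array 1, 2 or 3 the set difference of Slc7a10 was not called.

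Of the 3 intermediate filament genes, 0 passed in any of the 3 comparisons with all arrays. Gfap encodes the astrocyte filament protein used to stain these cells. It was at 10.99, 11.17, 10.78, 10.81 and 10.29 in controls, 10.04, 9.84, 11.16, 10.79 and 10.42 in water-deprived arrays and 10.76, 10.57, 10.88, 10.56 and 10.45 in food-deprived arrays. The 2 water-deprived arrays of the high set were the lowest of all 15, and the 3 of the low set lay within the range of the controls. The difference from control was -0.36 (SE 0.21, limma adjusted p = 0.760) for water and -0.17 (SE 0.21, adjusted p = 0.673) for food deprivation. Within the low set water deprivation differed from control by -0.02 (SE 0.21, adjusted p = 0.999). Within the high set Gfap was lower in water than in food deprivation by -0.70 (SE 0.13, 2 arrays against 5, adjusted p = 0.0499, 0.348% of all brightest probe sets called lower), which rests on 2 water-deprived pools. With the array set as a term in the fit of all 15 arrays the same difference of -0.70 (SE 0.21) had an adjusted p of 0.368 and was not called.

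Vim encodes vimentin, the filament protein of tanycytes, radial glia and ependyma. It was at 10.44, 10.01, 10.32, 10.76 and 10.49 in controls, 9.54, 9.43, 10.78, 10.26 and 10.27 in water-deprived arrays and 10.16, 9.82, 9.95, 9.80 and 9.94 in food-deprived arrays. As for Gfap, water-deprived arrays 1 and 2 were the lowest of all. Water-deprived array 3 was the highest of all for Vim, and for Gfap the highest of its group. Food deprivation differed from control by -0.47 (SE 0.21, limma adjusted p = 0.172), with 4 of 5 food-deprived arrays below every control. The difference between array sets was -0.95 for Vim (SE 0.19, adjusted p = 0.00551) and -0.85 for Gfap (SE 0.23, adjusted p = 0.0226). With the set as a term, food deprivation against control turned to 0.48 for Vim (SE 0.23, adjusted p = 0.589) and to 0.68 for Gfap (SE 0.28, adjusted p = 0.541). Without water-deprived array 2 the set difference of neither gene was called, and that of Gfap was also lost without water-deprived array 1 or 3. Nes, the filament protein nestin of neural progenitors, was dim, at 5.83, 5.45, 6.28, 6.08 and 5.75 in controls, 6.38, 5.93, 6.05, 6.33 and 6.14 in water-deprived arrays and 6.26, 6.47, 5.99, 5.96 and 6.51 in food-deprived arrays. All 5 arrays of each deprived group lay above the control mean, with overlap, and the difference was 0.29 (SE 0.16, adjusted p = 0.755) for water and 0.36 (SE 0.16, adjusted p = 0.164) for food deprivation. Its set difference was -0.02 (SE 0.23).

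**Figure D3:**
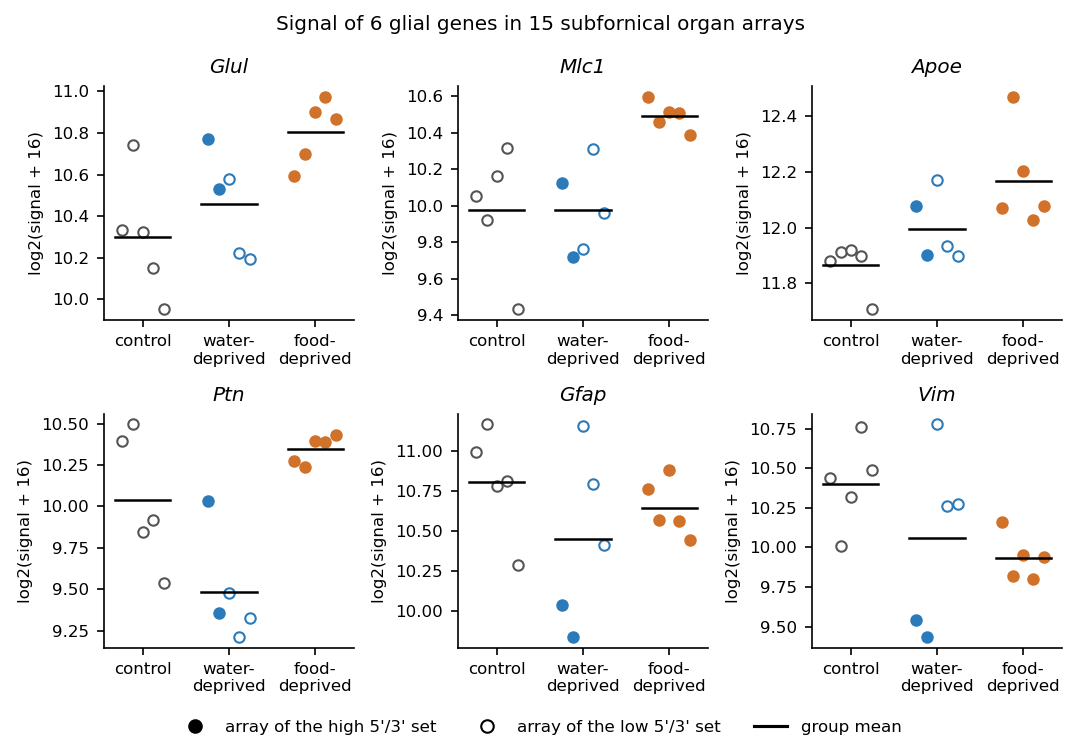
Each point is 1 array (a pool of 5 animals) on the log2(signal + 16) scale, filled where the array belongs to the high 5′/3′ set, and the line is the group mean; each panel has its own axis range. The food-deprived arrays of Mlc1 and Apoe lie above all controls, the water-deprived arrays of Ptn lie below all food-deprived arrays, and the filled water-deprived points of Gfap and Vim are the lowest arrays of those genes.

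Of the 4 tested transcription regulators, 0 passed in any comparison. Sox2, a factor of neural stem cells and glia, was at 9.66, 9.63, 9.53, 9.87 and 9.17 in controls, 9.34, 9.12, 9.48, 9.46 and 9.38 in water-deprived arrays and 9.64, 9.58, 9.49, 9.71 and 9.69 in food-deprived arrays. Its water-deprived arrays all lay below its food-deprived arrays. That difference was -0.27 (SE 0.11, limma adjusted p = 0.269), and the difference from control was -0.22 (SE 0.11, adjusted p = 0.752) for water and 0.05 (SE 0.11, adjusted p = 0.824) for food deprivation. Id4, an inhibitor of basic helix-loop-helix factors, was at 10.19, 9.71, 10.01, 10.35 and 9.63 in controls, 9.73, 9.43, 9.85, 9.71 and 10.09 in water-deprived arrays and 10.23, 10.14, 9.93, 10.05 and 9.97 in food-deprived arrays. Its groups overlapped, and it differed from control by -0.22 (SE 0.14, adjusted p = 0.781) in water and 0.09 (SE 0.14, adjusted p = 0.749) in food deprivation. Hes5, an effector of Notch signalling, was dim, at 5.44, 6.09, 5.55, 5.74 and 4.29 in controls, 5.86, 6.05, 5.45, 5.81 and 5.79 in water-deprived arrays and 5.61, 5.83, 5.75, 6.10 and 5.27 in food-deprived arrays. Control array 5 stood below all other arrays, and the difference was 0.37 (SE 0.26, adjusted p = 0.797) in water and 0.29 (SE 0.26, adjusted p = 0.509) in food deprivation. Hes1, the other Notch effector of the group, differed by 0.07 (SE 0.26) and 0.32 (SE 0.26).

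All 7 secreted and binding proteins lay above 0 in food deprivation against control (median 0.26), of which Apoe passed, and below 0 in water against food deprivation (median -0.22), of which 0 passed. After quantile normalization 4 of 7 lay above 0 in the former and 5 of 7 below 0 in the latter. Apoe encodes the lipid carrier apolipoprotein E, which astrocytes secrete. Its values were 11.88, 11.91, 11.92, 11.90 and 11.71 in controls, 12.08, 11.90, 12.17, 11.93 and 11.90 in water-deprived arrays and 12.07, 12.47, 12.20, 12.03 and 12.08 in food-deprived arrays. Every food-deprived array lay above every control, and the water-deprived arrays overlapped both. Apoe rose by 0.30 (SE 0.09, n = 5 against 5, limma adjusted p = 0.0463), the call held in 3 of the 15 fits that each left out 1 array, and without food-deprived array 2 the difference was 0.23. After quantile normalization it was -0.053 (adjusted p = 0.828), after median centring 0.20 (adjusted p = 0.166), and with the array set as a term 0.31 (SE 0.15, adjusted p = 0.590).

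Ptn encodes pleiotrophin, a heparin-binding growth factor of glia. It was at 10.40, 10.50, 9.85, 9.92 and 9.54 in controls, 10.04, 9.36, 9.48, 9.21 and 9.33 in water-deprived arrays and 10.28, 10.24, 10.40, 10.39 and 10.43 in food-deprived arrays. Water-deprived arrays were low and food-deprived arrays high, without overlap, and the controls overlapped both. Ptn was the only one of the 29 genes to pass the moderated F test of any difference among the 3 groups (limma adjusted p = 0.0288, against 2.08% of all brightest probe sets). The call was lost with the array set as a term (adjusted p = 0.346) and without any 1 of the food-deprived arrays or water-deprived array 4 or 5. Between water and food deprivation Ptn was 1.82-fold lower (log2 -0.87, SE 0.18, adjusted p = 0.0509). That pairwise difference passed without control array 2 or 5 or water-deprived array 1 or 2, and after quantile normalization (-0.89, adjusted p = 0.0440). Against control it was -0.56 (SE 0.18, adjusted p = 0.703) in water and 0.31 (SE 0.18, adjusted p = 0.281) in food deprivation. Within the low set, water deprivation against control was -0.70 (SE 0.21, adjusted p = 0.999), and within the high set water against food deprivation was -0.65 (SE 0.15, adjusted p = 0.0851), so Ptn was lower in water-deprived arrays of both sets without passing.

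S100b, a calcium-binding protein of astrocytes, was at 11.34, 11.65, 11.38, 11.29 and 10.90 in controls, 11.38, 11.02, 11.40, 11.49 and 11.14 in water-deprived arrays and 11.52, 11.63, 11.66, 11.61 and 11.57 in food-deprived arrays. The food-deprived arrays were close to each other (SD 0.05) and above every water-deprived array, while the controls overlapped both. The difference was 0.29 (SE 0.12, limma adjusted p = 0.137) in food and -0.03 (SE 0.12, adjusted p = 0.973) in water deprivation, and -0.31 (SE 0.12, adjusted p = 0.220) between them. The other members of this role, the chaperone clusterin (Clu), the fatty acid-binding protein Fabp7, the matrix protein Sparcl1 and the metallothionein Mt3, differed from control by -0.18 to 0.10 in water and by 0.09 to 0.26 in food deprivation.

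**Figure D4:**
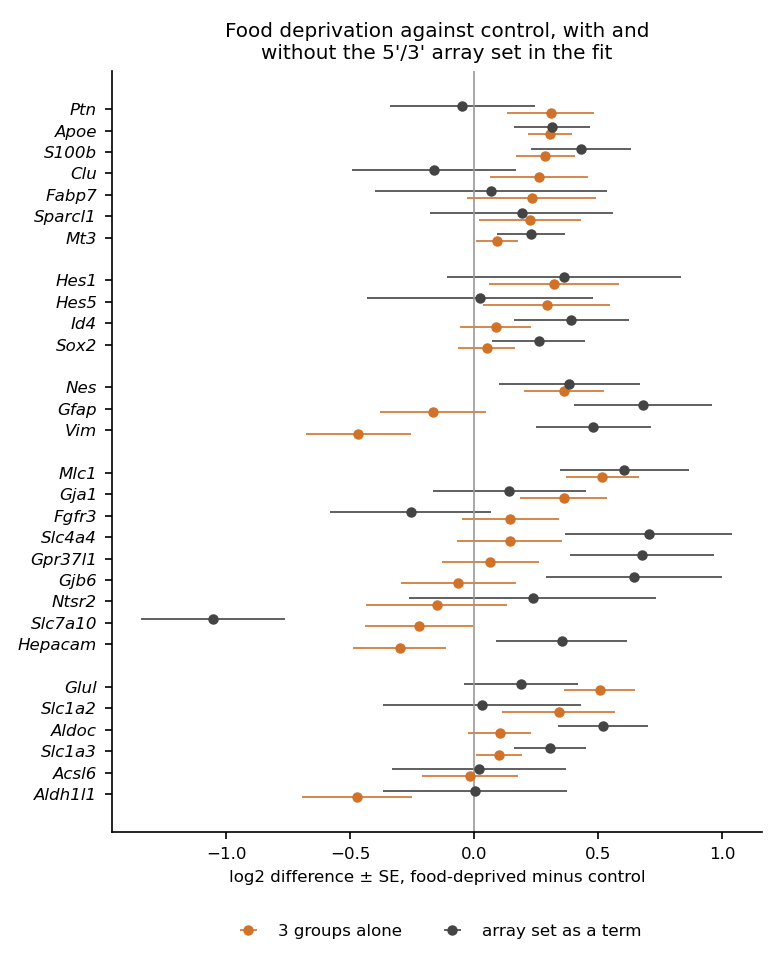
Points give the log2 difference between food-deprived and control arrays, bars the SE, for the fit of the 3 groups alone and for the fit with the 5′/3′ array set as a term. Mlc1 and Apoe have nearly the same value in both fits with a wider bar in the second, Gfap and Vim change sign, and 0 of 29 genes pass in the second.

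With the array set as a term, 25 of the 29 genes lay above 0 in food deprivation against control (median 0.26), against 51.0% of all brightest probe sets (median 0.008). Of the 29 genes 0 passed, and 0 of all 21729 probe sets passed. The set itself differed for 3 of the 29 (Slc7a10 higher, Gfap and Vim lower in the high set), against 14.6% of all brightest probe sets. Without water-deprived array 3 the set differences were -0.66 for Gfap and 0.72 for Slc7a10, neither called, and -0.78 for Vim, still called. The calls of Gfap and Slc7a10 were also lost without water-deprived array 1 or 2, and that of Vim without array 2. Within the water-deprived group, the 2 arrays of the high set and the 3 of the low set did not overlap for 12 of the 29 genes, 4 higher and 8 lower in the high set, against 46.2% of all brightest probe sets.

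Other probe sets of the same genes gave a different picture. The 29 genes have 16 further tested probe sets, each dimmer than the brightest of its gene, for 11 genes in all. In food deprivation against control 11 of these 16 passed, for 9 genes, 10 of them higher, against 16.4% of all such further probe sets, and the median was 0.78. The second probe set of Clu was at 2.59 (SE 0.44, limma adjusted p = 0.00399) where the brightest was at 0.26. Probe sets 2 and 3 of Id4 were at 1.96 (SE 0.29, adjusted p = 0.00209) and 2.06 (SE 0.30, adjusted p = 0.00211) where the brightest was at 0.09. Probe set 3 of Slc1a3 was at 1.49 (brightest 0.10) and probe set 2 of Gja1 was 2.83-fold higher (brightest 1.28-fold). Both further probe sets of Glul also passed, at 0.82 and 1.19, so all 3 of its probe sets were called higher in this fit. None of the 3 passed with the array set as a term. Within the water-deprived group, Glul probe sets 2 and 3 were 0.45 and 1.44 higher in the high array set. The second of Slc4a4 fell by 1.90 (SE 0.36, adjusted p = 0.00646) where the brightest was at 0.14.

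With the array set as a term 0 of the 16 passed in food deprivation against control, and the values were 0.35 for the second probe set of Clu, 0.46 and 0.43 for probe sets 2 and 3 of Id4, -0.47 for the second of Gja1 and -0.63 for that of Slc4a4. The set itself differed for 8 of the 16, 7 of them higher, against 23.8% of all such probe sets: by 2.25 for Clu, 1.97 for Gja1, 1.63 and 1.49 for Id4, 1.44 for Glul, 1.16 for Slc1a3, 0.87 for Hes5 and -1.27 for Slc4a4. In water against food deprivation probe set 3 of Id4 passed (-1.63, SE 0.30, limma adjusted p = 0.0481), against 0.299% of such probe sets, and it was at -0.65 (SE 0.12, adjusted p = 0.0504) within the high set. The position of these probe sets in the transcripts was not used here.

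**Figure D5:**
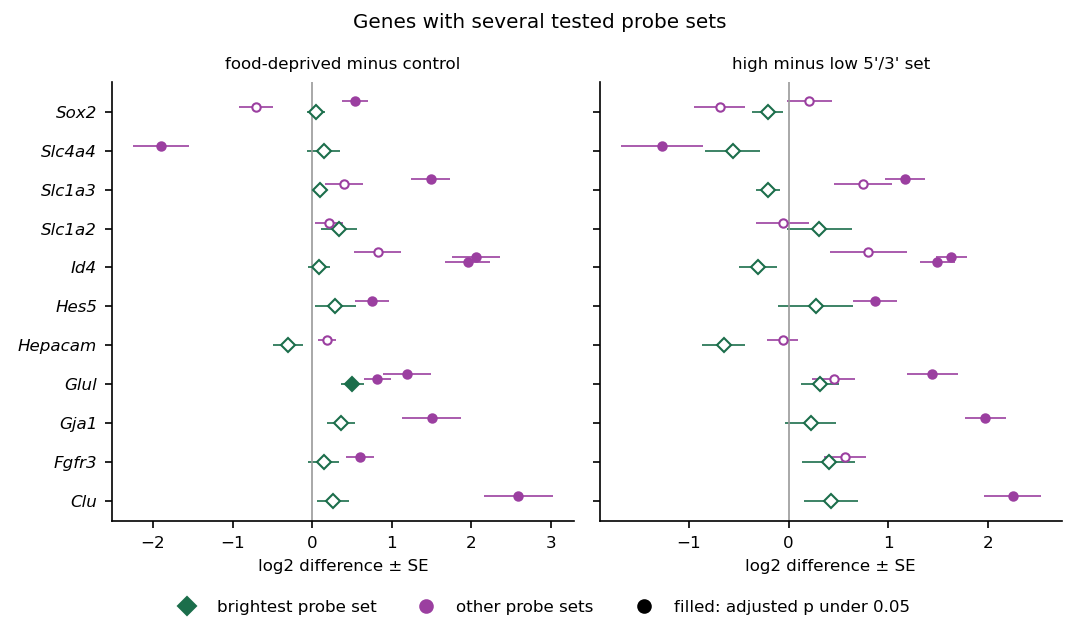
For the 11 genes with several tested probe sets, diamonds give the brightest and circles the other probe sets, with bars for the SE and filled symbols for a limma adjusted p under 0.05. In food deprivation against control (left) most circles lie farther from 0 than the diamond of the same gene, and 11 of the 16 circles are filled. Between the 5′/3′ array sets (right) 8 of the 16 are filled, among them Clu (2.25, and 2.59 in food deprivation) and Slc4a4 (-1.27, and -1.90); Fgfr3 probe set 2 (0.56), Sox2 probe set 3 (0.21) and Glul probe set 2 (0.45) are filled on the left alone.

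Further glial genes, in 5 lists, were read in the same way. Over the brightest probe sets of all genes, 2.62% were called lower and 3.12% higher in food deprivation against control. In that comparison 2 of 28 tested other astrocyte genes fell: Atp1b2, a subunit of the sodium pump (-1.26, SE 0.29, limma adjusted p = 0.0184), and Nfia, a factor of gliogenesis (-0.66, SE 0.18, adjusted p = 0.0334), although further probe sets of Nfia were at 0.19 and 0.54. Of 18 reactive glia genes Stat3, a transducer of cytokine signals, fell (-1.33, SE 0.20, adjusted p = 0.00252), with its other probe set at -0.49 (adjusted p = 0.194). Of 12 tanycyte and Nax glia genes Six3, a homeobox factor, fell (-1.52, SE 0.28, adjusted p = 0.00575; dim, at 4.22 to 4.60 in food-deprived arrays), while Scn7a itself was at -0.04 (SE 0.28) in food and -0.21 (SE 0.28) in water deprivation. Of 16 lactate and glutamine shuttle genes the glucose transporter Slc2a1 rose (0.51, SE 0.11, adjusted p = 0.0125). Of 17 Notch and Id genes Notch3 rose (0.42, SE 0.11, adjusted p = 0.0260), and Id3 was at 0.94 (SE 0.29, adjusted p = 0.0565). With the array set as a term 0 of the 5 lists held a call, and the values were 0.29 for Atp1b2, -0.04 for Nfia, -0.66 for Stat3, -0.25 for Six3, 0.32 for Slc2a1 and 0.13 for Notch3. The set difference was -1.54 for Atp1b2 and -1.26 for Six3.

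With all arrays, limma called 0 genes of the 5 lists in water deprivation against control or against food deprivation, and 0 with the array set as a term. Within the high set 4 passed in water against food deprivation, against 0.495% of all brightest probe sets, and they are named here after their values were seen. The lactate transporter gene Slc16a3, 1 of 16 lactate and glutamine shuttle genes, was higher in water deprivation (1.13, SE 0.16, adjusted p = 0.0289). Crym, a thyroid hormone-binding protein (-1.07, SE 0.14, adjusted p = 0.0196), and the homeobox factor Lhx2 (-0.79, SE 0.11, adjusted p = 0.0209), 2 of 12 tanycyte and Nax glia genes, were lower, as was C3, 1 of 18 reactive glia genes (-0.96, SE 0.12, adjusted p = 0.0196). When the set was a term, over all 15 arrays, the adjusted p values were 0.256 for Slc16a3, 0.438 for Crym, 0.414 for Lhx2 and 0.324 for C3. Within the low set 0 passed in water deprivation against control, as did 0 of all brightest probe sets. For water deprivation against control with all arrays, the smallest unadjusted p values belonged to reactive glia genes. They were Gbp2, an interferon-induced GTPase (-0.50, SE 0.12, limma adjusted p = 0.499), and C3, the complement component (-0.70, SE 0.18, adjusted p = 0.523). Aqp4, the water channel of astrocyte endfeet, was at -0.21 (SE 0.11, adjusted p = 0.752) in water and 0.10 (SE 0.11, adjusted p = 0.602) in food deprivation. Among endothelial and mural markers 2 of 15 rose in food deprivation, against the 3.12% called higher over all brightest probe sets: Cldn5 (0.64, adjusted p = 0.0407) and Acta2 (0.56, adjusted p = 0.0340).

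Summed marker signals were also set beside these results. For oligodendrocyte, neuron and microglia markers the sums of food-deprived arrays lay within the range of controls. For endothelial and mural markers the sums were 1488 to 1935 in food-deprived arrays and 1424 to 1748 in controls, so the food-deprived range reached higher. Summed over the group's measured genes, the signal was 27959 to 38452 in controls, 28940 to 35869 in water-deprived and 36450 to 39764 in food-deprived arrays. Over 15 choroid plexus and ependyma markers with a probe set it was 18212 to 24082 in water-deprived arrays 1 and 2, 4505 to 14609 in arrays 3 to 5, 6572 to 17585 in controls and 10780 to 20635 in food-deprived arrays. All 14 tested markers of this list were higher in the high set (median 1.12), and 1 of them was called, against 14.6% of all brightest probe sets. Kcnj13 was below the filter. Over 16 oligodendrocyte markers it was 12702 to 18073 in food-deprived arrays, 6490 to 19483 in controls and 5765 to 15102 in water-deprived arrays, with 13 of 15 tested markers above 0 in food deprivation (median 0.37) and 0 called. The part of other cell types in the results of the glial genes was not tested.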

How the data were processed

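The deposited table of 31099 probe sets (57 of them controls) holds linear signal intensity; the submitters' processing notes name GCOS 1.2 without its role, and per the file's own values the authors scaled every array to a trimmed mean of 100.0 (2% trimmed at each end). Intensities were used as deposited, as log2(signal + 16), and symbols came from the platform annotation. Probe sets with a mean above the 30th percentile (21729) were tested with limma 3.58.1 in R 4.3.3: 3 groups in 1 fit (12 residual degrees of freedom), variance trend, two-sided, Benjamini-Hochberg adjustment over all tested, threshold 0.05. The array set (5′/3′ threshold -1 on the log2 scale, chosen after seeing the data) entered as a term in a second fit (11 residual degrees of freedom). Arrays give no counts, so their number limits precision.

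The members, gene lists and tests were chosen with earlier results of these data known. Every member is accounted for; arrays are listed for members called and for the 3 members of each role with the smallest F test p, and further for Slc7a10, chosen after its values were seen. Of each further list, genes called between groups are named, with only some of those among the 4 smallest p values, and with Scn7a and Aqp4 added. Replicate numbers were not used to pair the arrays in the main fit. Correlations of same-numbered deviations ran from -0.36 to 0.37. They were not set beside those of differently numbered arrays, so they cannot exclude pairing. The fit was tested on simulated data. Figures used Python 3.11.15, pandas 2.3.3, numpy 2.4.6 and matplotlib 3.10.9.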

Additional observations from a re-analysis of the deposited data

Results flagged for a closer look

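Among the 87 groups of 5 arrays (29 genes in 3 groups), 6 held 1 array far from the others, a gap of more than 0.71 of the group's range; chance alone gives about 1 in 20 groups. Hes1 was at 7.23 in control array 2 where the other controls lay between 8.76 and 9.04. Acsl6 was at 7.13 in control array 4 (others 8.18 to 8.51), and Gjb6 at 7.19 in the same array (others 6.74 to 6.84). Apoe was at 11.71 in control array 5 (others 11.88 to 11.92). Fabp7 was at 9.28 in food-deprived array 1 (others 9.98 to 10.16), and Slc1a2 at 5.03 in water-deprived array 5 (others 5.50 to 5.67).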

How the results depend on the processing

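In water deprivation against control 0 of the 29 genes were called under each alternative. In food deprivation against control the count of 3 became 0 after quantile normalization, after median centring, with the array set as a term and with the 5′/3′ ratio as a covariate. It became 1 (Mlc1) with the replicate block. With an offset of 1, with no filter or with no variance trend it was 2, Glul and Mlc1 without Apoe. With only the 2 groups compared it was 4, Vim included. With the second brightest probe set it was 7, of 11 genes with such a probe set tested, against 16.4% of all further probe sets. When each array was left out it was 0 to 3. The count was 0 without control array 1, 3 or 5 or food-deprived array 2, 3, 4 or 5. It was 1 without control array 4, water-deprived array 5 or food-deprived array 1. Without control array 2 it was 2, Gja1 and Glul. For the fits that each left out 1 array, here and below, the share of all probe sets called is not given. These counts are thus not read as a result about the members. In water against food deprivation the count of 0 became 1 after quantile normalization and with the filter at the 50th percentile (Ptn), 1 within the array set (Gfap), and 0 to 1 with arrays left out. For the F test the count of 1 became 0 with the array set as a term or the 5′/3′ ratio as a covariate, and 0 to 2 with arrays left out. For the array sets the count of 3 became 5 with the second brightest probe set, of 11 genes with such a probe set tested, against 23.8% of all further probe sets. With arrays left out it was 0 to 7 (0 without water-deprived array 2). Among values called in either fit, signs turned for Apoe after quantile normalization (-0.053), for Slc4a4 with its second probe set (-1.90) and for Id4 between array sets with its second probe set (1.49). Signs of values called in neither fit turned as well: with the array set as a term, for 10 of 29 genes in food deprivation against control, 8 in water deprivation against control and 6 in water against food deprivation. After quantile normalization signs turned for 6, 4 and 4 genes, Apoe included in each, after median centring for 5, 1 and 2, and with the 5′/3′ ratio as a covariate for 5, 0 and 5. The causes were not tested. The array set rests on 5 water-deprived pools, and the SE of food deprivation against control grew with it, from 0.15 to 0.26 for Mlc1.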
